A study of Homo sapiens with 3 samples.

Results

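The MYC network genes encode the bHLH-leucine zipper factors MYC, MYCN and MYCL, their shared partner MAX, and MXD1, MXI1, MNT and MGA, which compete with the MYC proteins for MAX. Binding of ETS1 around these 8 genes was read from 1 consensus list of ChIP-Seq peaks in SCC25, a human tongue squamous carcinoma line. The list combines 3 ChIP samples of SCC25 for which no treatment is labelled, 2 precipitated with the polyclonal antibody C20 and 1 with the polyclonal antibody 501A, both against ETS1. It gives only the position of each peak, with no score, summit, read count or value per sample. Neither the spread between samples nor the agreement of the antibodies can therefore be given, and every statement concerns a single cell line. The members were chosen by name from the GENCODE release 44 annotation on hg19. A peak was counted for a gene if its midpoint fell in the gene body or within 100 kb of it, and for MYC also if it fell within 1 Mb of the transcription start site (TSS). All 8 genes were found among 20163 protein-coding genes, and 92 of the 26970 peaks met the rule, 63 of them in the 100 kb windows. The markers of the cell line could not be checked, since the list holds no expression.

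MYC, MYCN and MYCL activate transcription as dimers with MAX, which bind the E-box. MXD1, MXI1 and MNT form dimers with MAX at the same sequence and repress, and MGA is a large member that carries a second DNA-binding domain, the T-box. MYC itself is a widely amplified oncogene of carcinomas and lies in a region with very few other coding genes, in which long noncoding RNAs and distant enhancers have been described. ETS1 recognises a GGAA core flanked by preferred bases. A peak beside a gene gives a place of binding and carries no information on the gene's response.

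ETS1 peaks lay at the promoters of 7 of the 8 genes, namely MYC, MYCL, MAX, MXD1, MXI1, MNT and MGA. MYCN was the exception, with no peak in its body and a single peak in its window. A promoter peak was defined by a midpoint within 500 bp of any annotated TSS of the gene. By this rule 53.1% of all 20163 protein-coding genes had one (95% Wilson confidence interval 52.4 to 53.8%, which covers the counting of genes only). With 8 genes chosen by name, no test of this count was made. The 8 genes have between 3 annotated TSSs, at MYCN and MYCL, and 37, at MXI1, against a median of 5 over coding genes. Of the 7 counted genes only MYCL lies below that median and MXD1 has 5. The others have more, and so more chances to be counted. When only the canonical TSS was used, 6 of the 8 genes had a midpoint within 500 bp, against 46.1% of coding genes, and MXI1 dropped out. Its canonical TSS nonetheless lay under a wide peak, so that the canonical TSS itself was covered in 7 genes, against 51.6% of coding genes.

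Sequence under these peaks is shown where it can be read from the hg19 genome outside annotated exons. Each line is the stretch of at most 150 bp, within a promoter peak of the gene or within the only peak of MYCN, that holds the most matches to the ETS core and, among equals, to the other motifs marked. It runs 5′ to 3′ on the strand of the gene, and capitals mark the ETS core (AGGAA followed by G or A), the longer form CCGGAAG and the E-box CACGTG, on either strand. No stretch from the MYC locus is shown.
MYCN: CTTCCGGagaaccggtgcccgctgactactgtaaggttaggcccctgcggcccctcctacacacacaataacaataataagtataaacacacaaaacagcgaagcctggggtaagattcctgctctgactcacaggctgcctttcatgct
MYCL: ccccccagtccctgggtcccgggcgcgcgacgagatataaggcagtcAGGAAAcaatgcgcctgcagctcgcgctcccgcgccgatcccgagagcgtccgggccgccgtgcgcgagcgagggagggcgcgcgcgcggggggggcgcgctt
MAX: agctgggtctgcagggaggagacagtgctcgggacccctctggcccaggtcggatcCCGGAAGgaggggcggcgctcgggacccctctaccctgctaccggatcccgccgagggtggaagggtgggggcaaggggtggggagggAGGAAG
MXD1: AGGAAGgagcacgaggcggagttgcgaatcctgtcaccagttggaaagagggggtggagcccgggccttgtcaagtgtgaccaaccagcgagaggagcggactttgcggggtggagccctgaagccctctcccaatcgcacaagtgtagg
MXI1: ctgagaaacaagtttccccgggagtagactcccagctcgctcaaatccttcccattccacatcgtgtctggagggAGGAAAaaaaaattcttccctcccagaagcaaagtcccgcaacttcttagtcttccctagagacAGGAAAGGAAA
MNT: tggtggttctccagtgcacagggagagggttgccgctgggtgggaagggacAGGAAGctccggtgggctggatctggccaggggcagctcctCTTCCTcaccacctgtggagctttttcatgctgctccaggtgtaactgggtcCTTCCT
MGA: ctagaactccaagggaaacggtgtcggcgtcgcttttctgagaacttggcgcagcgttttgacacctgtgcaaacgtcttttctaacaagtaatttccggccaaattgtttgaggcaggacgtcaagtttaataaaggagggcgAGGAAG

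The stretch of MYCN is chr2:16052478-16052627 on the plus strand, that of MYCL is chr1:40367592-40367741 on the minus strand, and that of MAX is chr14:65568415-65568564 on the minus strand. Those of MXD1, MXI1 and MGA are chr2:70141969-70142118, chr10:111985409-111985558 and chr15:41953167-41953316 on the plus strand, and that of MNT is chr17:2300934-2301083 on the minus strand. Matches to the ETS core numbered 3 in MXI1, where those in AGGAAAGGAAA overlap, 3 in MNT, and 1 in MYCL, MAX, MXD1 and MGA. Each stretch was chosen for its matches, from peaks of unequal length, so these numbers do not rank the genes. The stretch of MAX also held CCGGAAG, in which CC precedes the GGAA. The only peak of MYCN had CCGGAAG, on the minus strand, which holds GGAA, and no match to AGGAAG or AGGAAA. These are matches of letters, and the list has no summit that would place the protein on one of them.

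MYC, the founding member of the family, lies on the plus strand at chr8:128747680-128755197 with 14 annotated TSSs. The 2 peaks at its promoters were chr8:128747072-128748921, which is 1850 bp wide, and chr8:128749081-128751828, which is 2748 bp wide. The first covered 8 of the 14 TSSs, among them the canonical TSS at 128748477, and overlapped exon 1 of the canonical transcript. The second covered the other 6 TSSs and overlapped exon 2, and its midpoint lay in intron 1, 2.0 kb after the canonical TSS. A gap of 159 bp separated them. A further peak of 429 bp at chr8:128746128-128746556 lay 515 bp upstream of the first, at a TSS of CASC11, a noncoding RNA on the opposite strand whose body runs through the start of MYC. From the start of this peak to the end of the last, 88.2% of the 5701 bp were under a peak. Of all nuclear peaks, 3.84% were at least as wide as the second promoter peak and 13.9% at least as wide as the first.

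MYCL and MYCN, the other activating members, differed at their promoters. MYCL, on the minus strand at chr1:40361100-40367928, had 1 promoter peak at chr1:40366382-40368432. It is 2051 bp wide, covered all 3 annotated TSSs and was centred on the 5′ UTR in exon 1, 182 bp after the canonical TSS. At MYCN, at chr2:16080672-16087129 on the plus strand, none of the 3 annotated TSSs lay under a peak. Its only peak, chr2:16052302-16052666, is 365 bp wide, lies 28.2 kb upstream of the canonical TSS and 8037 bp from the nearest TSS of any gene. Of all nuclear peaks, 93.3% were at least as wide. MYCN is known from neural tumours and development, and its level in SCC25 was not analysed here.

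MAX, the shared partner of the other factors, lies on the minus strand at chr14:65472892-65569413. A single peak, chr14:65568329-65570111, covered all of its 14 annotated TSSs, with its midpoint 15 bp after the canonical TSS. No other peak fell within the 96.5 kb of the gene. Among the antagonists, MXD1 at chr2:70124820-70170077 had a like arrangement. Its promoter peak at chr2:70141174-70143091 is 1918 bp wide, covered the canonical TSS and 2 others of its 5 TSSs, and was the only peak in the gene body.

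At MXI1, MNT and MGA, in contrast, several peaks lay along the 5′ part of the gene. MXI1, on the plus strand at chr10:111967363-112047123, carried a peak of 4196 bp at chr10:111967126-111971321 over the canonical TSS. Only 0.623% of nuclear peaks were at least as wide, and the midpoint fell 1.9 kb inside the gene, in intron 1, where it counted for no TSS. The peak that met the promoter rule, chr10:111985378-111986520, lay 18.6 kb after the canonical TSS, over 6 other annotated TSSs. A small peak of 400 bp lay between them, 14.4 kb after the canonical TSS.

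MNT, on the minus strand at chr17:2287367-2304398, had 3 promoter peaks, a number reached by 0.709% of coding genes, or 2 when peaks within 1 kb were joined. The widest, chr17:2301762-2306268, is 4507 bp, covered the canonical TSS, and was the widest of the 92 peaks. Only 0.438% of nuclear peaks were at least as wide. The others, chr17:2299537-2301499 and chr17:2295640-2298063, were centred 3.8 and 7.5 kb into the gene, in intron 1 and intron 4, at 371 and 273 bp from other annotated TSSs. MGA, on the plus strand at chr15:41913332-42065279, had promoter peaks at 2 positions. One, chr15:41913206-41914414, covered 4 TSSs at the 5′ end of the annotated gene, 38.8 kb upstream of the canonical TSS. The other, chr15:41952098-41953318, covered 4 TSSs with the canonical one, and a peak of 677 bp followed it in intron 1. In all, 3 of the 8 genes had more than 1 promoter peak (MYC, MNT and MGA), against 5.43% of coding genes. With peaks within 1 kb joined, the promoter peaks of MYC became 1 region, and 2 of the 8 genes (MNT and MGA) had more than 1, against 4.58% of coding genes. Genes with many annotated TSSs have more chances to be counted in this way.

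**Figure D1:**
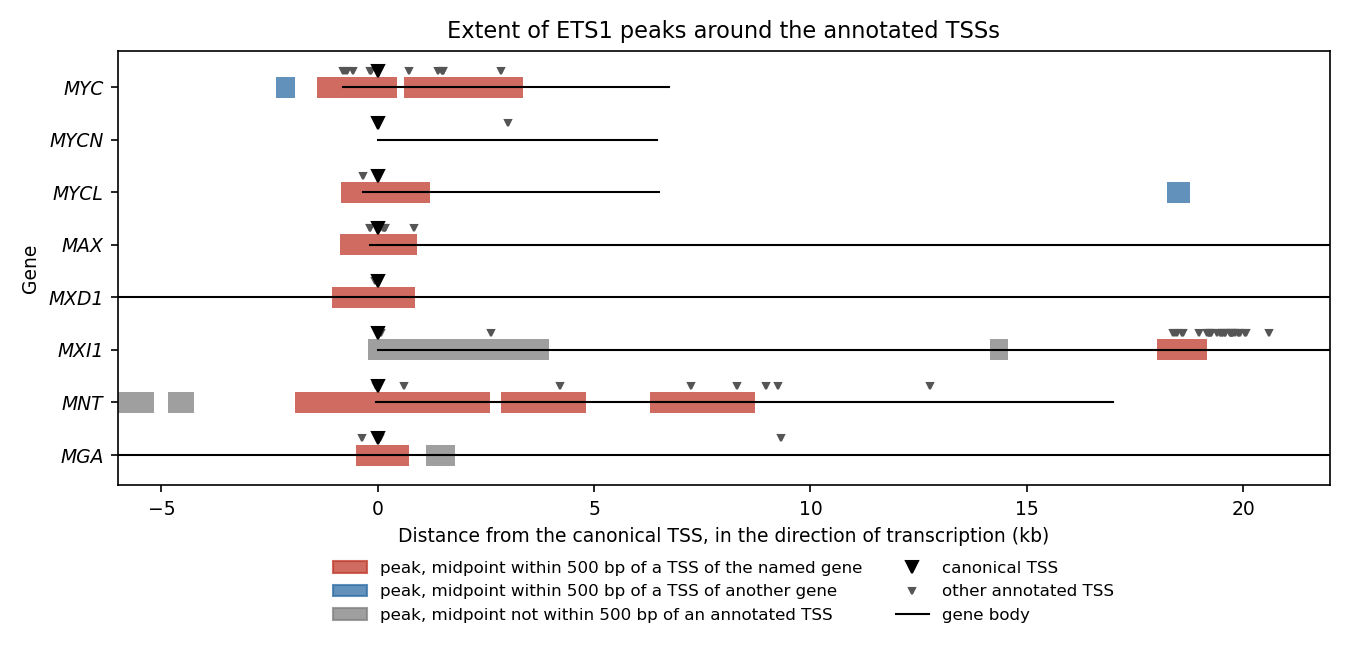
Extent of ETS1 peaks from 6 kb upstream to 22 kb downstream of the canonical TSS of each gene, in kb along the direction of transcription, with annotated TSSs as triangles and gene bodies as black lines. Peaks of the named gene's promoters are red, peaks at another gene's TSS blue and all others grey. MYC shows 2 adjoining red peaks, MNT 3, MXI1 a wide grey peak over its canonical TSS, and MYCN none. The promoter peak of MGA that lies 38.8 kb upstream is outside the range.

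The peaks of the 100 kb windows were not all beside the promoters of the network genes. Of the 63 peaks, 11 were at promoters of the gene itself, 20 were at the TSS of another gene only, and 32 were at neither. Over the whole list, 11685 of 26961 nuclear peaks lay within 500 bp of an annotated TSS. MGA had most, with 13 peaks in its 352 kb window, followed by MYCL with 11, MNT with 9 and MYC with 8. MAX, MXD1 and MXI1 had 7 each and MYCN had 1. The median was 7.5 over the 8 genes and 4 over all coding genes (quartiles 2 and 8), of which 87.5% had at least 1 peak in the same kind of window. The share of coding genes with at least as many peaks was 9.27% for MGA, 14.8% for MYCL and 87.5% for MYCN, so the members span most of the distribution.

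Because the windows differ in length, the density was also computed. In these windows it was highest at MYCL, with 5.32 peaks per 100 kb, then 4.15 at MNT, 3.86 at MYC and 3.69 at MGA. MXD1 had 2.85, MXI1 2.50, MAX 2.36 and MYCN 0.48 peaks per 100 kb. The median was 3.27 over the 8 genes and 1.60 over all coding genes. MGA came first by number and after MYCL, MNT and MYC by density, since its body of 151.9 kb lengthens its window. The order depended on the window. With 50 kb on each side MNT came first with 6.84 peaks per 100 kb and MYCL had 2.81, and with 200 kb MYC came first with 4.17 and MYCL had 3.69. MYCN came last with each of these lengths. Peaks near each other may belong to 1 bound region, and joining those within 1 kb left 54 of the 63.

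**Figure D2:**
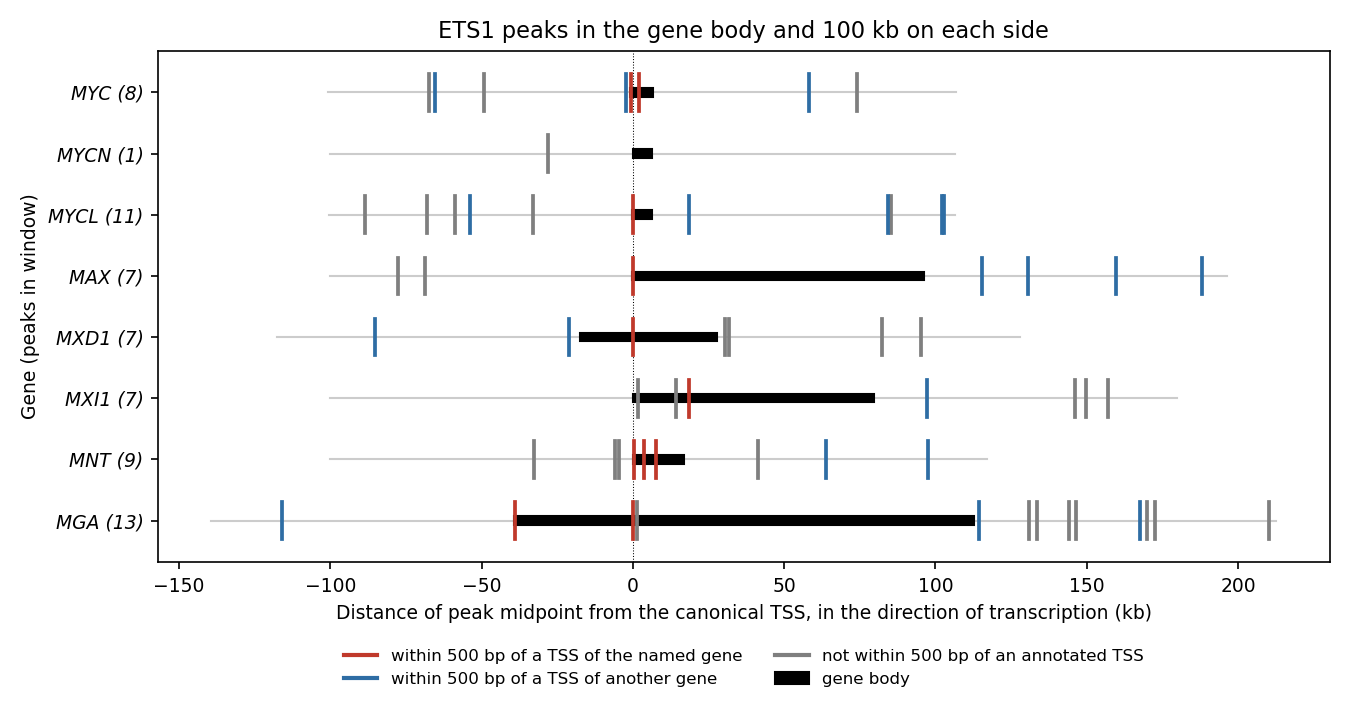
Midpoints of ETS1 peaks in the window of each gene, in kb from its canonical TSS along the direction of transcription. Thick black bars are gene bodies, thin lines the windows of 100 kb on each side, and the number of peaks follows each name. Red peaks are at the gene's own TSSs, blue at another gene's and grey at none. Of the 63 peaks 11 are red, and the row of MYCN holds 1 grey peak.

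**Figure D3:**
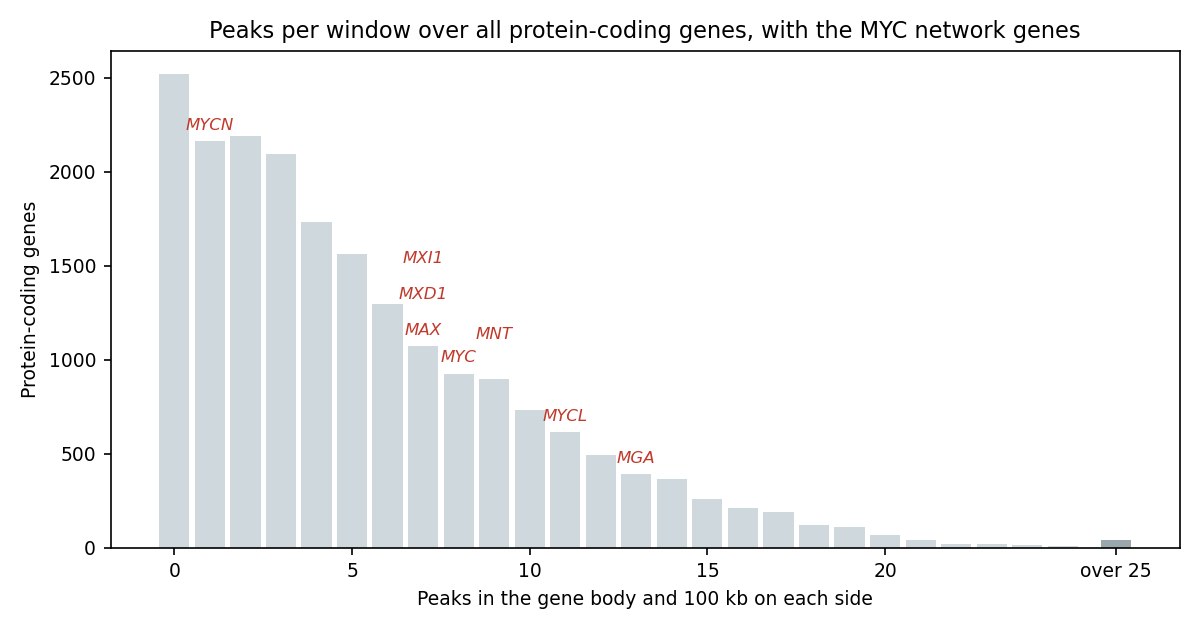
Number of protein-coding genes (vertical axis) by the number of ETS1 peaks in the gene body and 100 kb on each side (horizontal axis), with genes over 25 peaks in the last bar. The names stand above the bar of each network gene, from MYCN at 1 peak to MGA at 13, and the median of all coding genes is 4.

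Peaks away from promoters lay both upstream and downstream of the genes. At MXD1, peaks of 1556 and 454 bp lay together 30.6 and 31.8 kb after the canonical TSS, beyond the 3′ end of the gene. At MXI1, 3 peaks of 1067, 2095 and 1768 bp lay 146.1 to 157.0 kb after the canonical TSS, also beyond the gene. All 3 were in a region that the study called a super-enhancer, a large cluster of enhancers with high H3K27Ac signal. MYC had 6 of its 8 window peaks in such regions and MNT 6 of 9, the promoter peaks of both included. MYCL had 5 of 11, none of them its promoter peak. MAX, MXD1, MGA and MYCN had none. Over the whole list, 17.2% of nuclear peaks overlapped a super-enhancer by at least 1 bp. The positions of super-enhancers were taken from the study's own calls and used only to count and mark peaks, and typical enhancers were not analysed here.

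Around MYC, 37 peaks lay within 1 Mb of the canonical TSS, of which 29 were outside the 100 kb window. For all coding genes the median number within 1 Mb of the canonical TSS was 30 (quartiles 13 and 53), and 42.4% had at least as many as MYC. Only 1 other coding gene has its canonical TSS in that interval, against a median of 22. The number of peaks was thus close to the middle of the distribution in a region with few coding genes. Of the 37 peaks, 23 lay over 1500 bp from any annotated TSS (62.2%, 95% Wilson confidence interval 46.1 to 75.9%), against 48.2% of all nuclear peaks, a share inside the interval. Among the other members, the number within 1 Mb was 9 at MYCN, 33 at MXI1, 41 at MAX and at MXD1, 47 at MYCL, 54 at MGA and 58 at MNT.

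The 37 peaks were not spread evenly. Upstream of the TSS lay 16 peaks and downstream 21, and within 250 kb the numbers were 8 and 12. The longest stretch without a peak was 368 kb, from 810 to 441 kb upstream. The next was 232 kb, from 587 to 819 kb downstream. Widths ran from 274 to 3670 bp with a median of 700 bp, against 969 bp for all nuclear peaks. Width differs with position. Over 1500 bp from any TSS the median was 605 bp in the 23 peaks around MYC and 706 bp in all nuclear peaks.

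Downstream, the body of PVT1, a long noncoding RNA gene of 393 kb at chr8:128806772-129199347, held 15 of the 21 peaks. One of these, of 1708 bp, was centred 4 bp from the nearest TSS of PVT1, 58.3 kb after that of MYC. The widest peak of the locus, chr8:128863606-128867275 with 3670 bp, lay inside PVT1, 117.0 kb after the MYC TSS, and 1.24% of nuclear peaks were at least as wide. PVT1 has 132 annotated TSSs, and 3 of its 15 peaks were within 500 bp of 1 of them. Beyond PVT1 lay 5 peaks of 274 to 566 bp, of which 1 was at a TSS of the noncoding gene ENSG00000286034, 586.7 kb after that of MYC, and 2 were in LINC00824, at 818.9 and 820.6 kb.

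Upstream, a pair of peaks at chr8:128680661-128681902 and chr8:128682097-128683899 lay 67.2 and 65.5 kb before the TSS, at the noncoding gene ENSG00000286010. Their widths of 1242 and 1803 bp were the largest on that side, apart from the promoter peak. The peak that follows toward MYC, of 647 bp at chr8:128699131-128699777, lies in CASC11. Further out, 2 peaks of 938 and 367 bp were in the noncoding gene ENSG00000286266. CASC8, another noncoding gene, held 3 narrow peaks of 387 to 466 bp, of which 1 also lies in CCAT2 and in the coding gene POU5F1B. PCAT1, annotated over 863 kb, held 7 peaks and 2 of them were at its TSSs, 859.3 and 857.8 kb upstream of the MYC TSS. The first pair of peaks in PCAT1, of 370 and 289 bp, also lies in ENSG00000253573. These gene bodies overlap, so that a peak can be counted in several.

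Of the 37 peaks around MYC, 10 lay in a super-enhancer (27.0%, 95% Wilson confidence interval 15.4 to 43.0%). The share of 17.2% over all nuclear peaks is inside the interval. These 10 ran from 441 kb upstream to 2.0 kb downstream of the TSS. None of the other 20 downstream peaks, the 15 in PVT1 included, was in a super-enhancer. Of the 6 super-enhancers that reach into the interval, 5 held a peak. The one over MYC itself held 3, at the TSS of CASC11 and at both promoter positions of MYC. The paper reports ETS1 binding in almost all super-enhancers of SCC25, on average several times in each. These counts therefore do not set MYC apart.

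**Figure D4:**
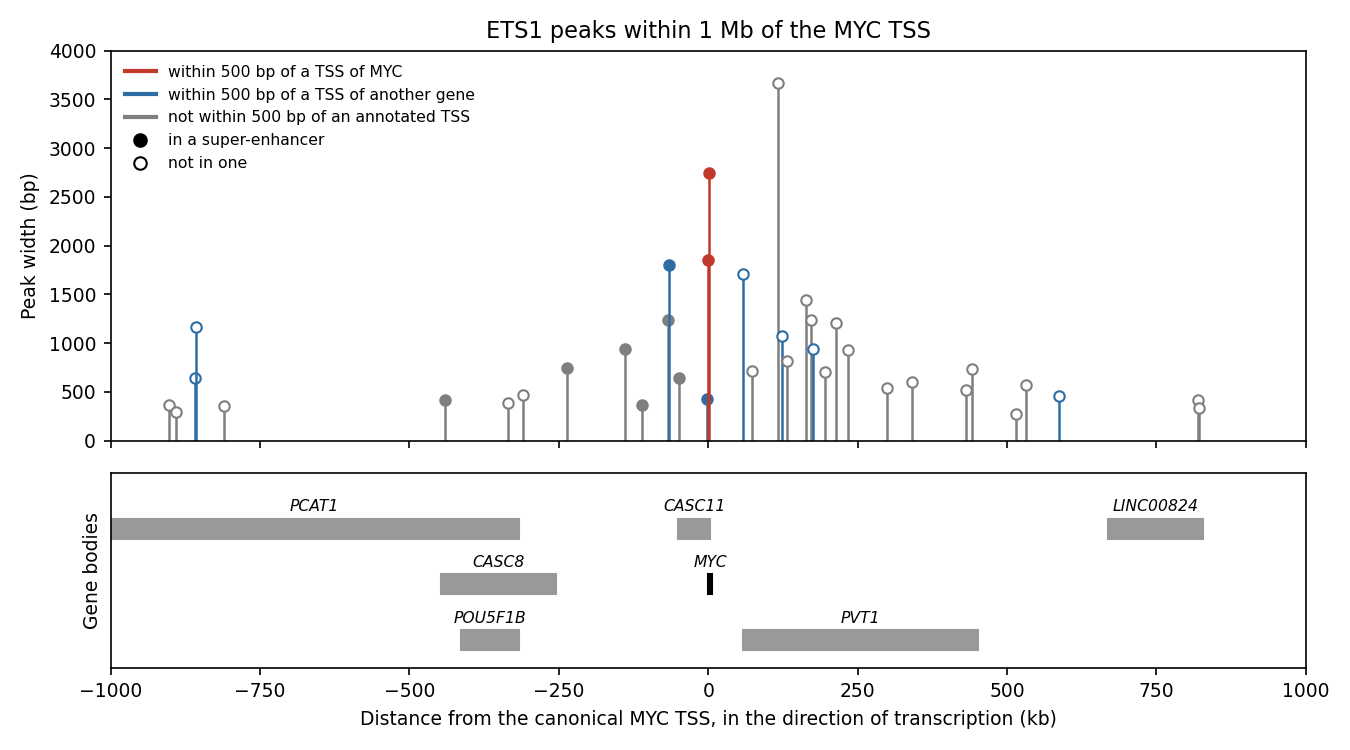
ETS1 peaks within 1 Mb of the canonical MYC TSS. The upper panel gives the width of each of the 37 peaks in bp against its distance from the TSS in kb, with filled circles for peaks in a super-enhancer, and the lower panel shows gene bodies, of which PCAT1 runs past the left edge. Filled circles occur from 441 kb upstream to 2.0 kb downstream, and the tallest line, 3670 bp, stands inside PVT1.

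The sequence under the peaks was searched in 600 bp around each midpoint, on both strands. The ETS core was found in 75 of the 92 peaks (81.5%, 95% Wilson confidence interval 72.4 to 88.1%), against 79.2% of all 26961 nuclear peaks. Its share followed the position of the peak. It was 72.2% in the 36 peaks within 500 bp of a TSS (confidence interval 56.0 to 84.2%), where 71.3% of all such peaks held it. In the 48 peaks over 1500 bp from any TSS it was 89.6% (confidence interval 77.8 to 95.5%), where all such peaks gave 86.1%. Within 1 Mb of MYC, 34 of 37 peaks held the core (91.9%, confidence interval 78.7 to 97.2%). In windows of 200 bp the shares were 62.2% around MYC, 52.2% in the 92 peaks and 44.0% in all nuclear peaks. Since peaks differ in base composition and position, these shares are a description. The median GC content was 49.8% around MYC and 57.8% over all nuclear peaks.

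At the 11 promoter peaks of the network genes themselves, the core was found in 8. The second MYC promoter peak, the promoter peak of MXI1 and the canonical promoter peak of MGA had no match in these 600 bp, and the peak of MNT in intron 4 had the most, with 4. The matches of MXI1, MGA, MAX and MNT in the stretches above lie in promoter peaks of these genes but farther from the midpoint, outside the 600 bp. CCGGAAG was found in 1 of the 11 promoter peaks, that of MAX (9.09%, confidence interval 1.62 to 37.7%). Of all peaks within 500 bp of a TSS 24.4% held it, a share inside the interval. The match counted at MAX is not the one shown in its stretch. Over the 92 peaks CCGGAAG was found in 13, against 14.6% of all nuclear peaks. All 92 peaks held GGAA, as did 99.7% of all nuclear peaks and 99.6% of those within 500 bp of a TSS, so that its presence in 600 bp says little.

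The E-box CACGTG, the sequence bound by the dimers of MAX, was found in 13 of the 92 peaks (14.1%, 95% Wilson confidence interval 8.45 to 22.7%), against 12.5% of all nuclear peaks. Among the 11 promoter peaks it occurred in 3 (27.3%, confidence interval 9.75 to 56.6%), where 13.8% of all peaks within 500 bp of a TSS held it, a share inside the interval. These were the promoter peak of MAX with 1 match, the widest peak of MNT with 1 and the upstream promoter peak of MGA with 2. The peak in intron 1 of MGA, which did not meet the promoter rule, had 3. None was found in the promoter peaks of MYC, MYCL, MXD1 and MXI1. Around MYC 2 of the 37 peaks held the E-box, and 1 of them was the 3670 bp peak in PVT1.

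**Figure D5:**
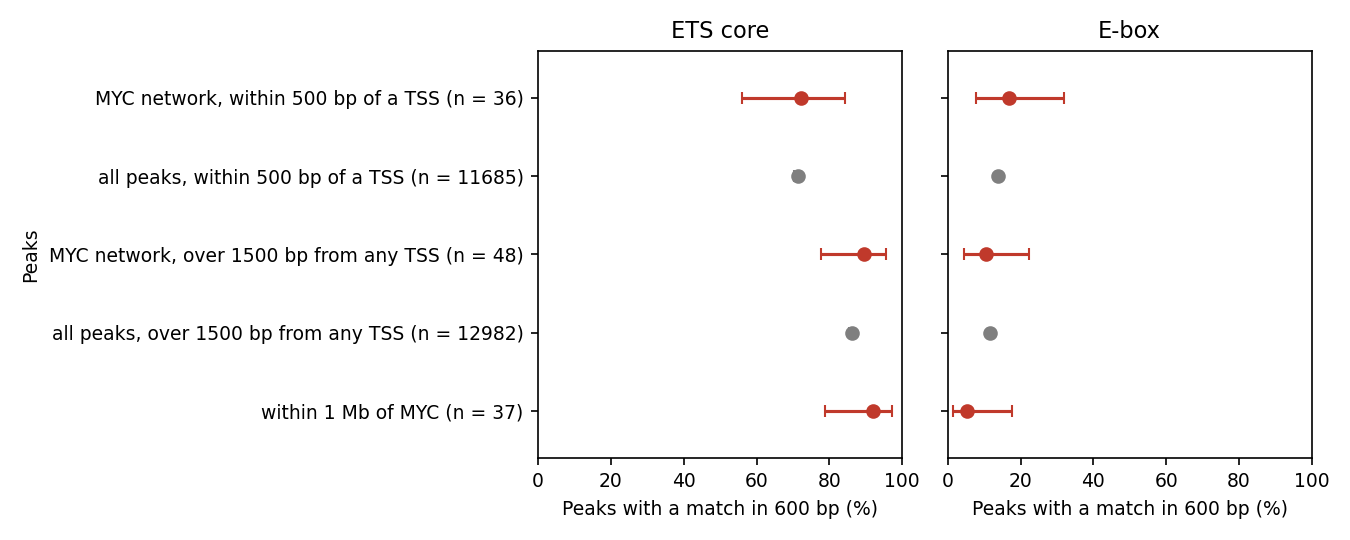
Share of peaks in % with a match in 600 bp around the midpoint, for the ETS core (left) and the E-box (right). Red points are peaks of the MYC network genes and grey points all nuclear peaks, and bars are 95% Wilson confidence intervals. For peaks within 500 bp of a TSS the core was found in 72.2% and 71.3%, and for peaks over 1500 bp from any TSS in 89.6% and 86.1%.

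The rest of the network was counted from 4 fixed lists with 38 genes, all of which were found in the annotation. A promoter peak was present at 31 of the 38, against the 53.1% of all coding genes. Most of the 38 have more annotated TSSs than the coding median of 5, and so more chances to be counted. With the canonical TSS alone, 29 of the 38 had one, against 46.1% of coding genes. In the remaining family, MLX, the partner of the glucose-responsive MondoA and ChREBP factors, had a promoter peak and 12 peaks in its window. MXD3, MXD4, MLXIP and MLXIPL had none, which left 1 of 5 genes, where 7 of the 8 genes above had one. The canonical TSS of MLXIP, which encodes MondoA, lay under a peak whose midpoint was over 500 bp away. MXD4 had 1 peak in its window, MXD3 6, MLXIP 8 and MLXIPL 10.

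Of 11 cofactors 9 had a promoter peak, among them the corepressor SIN3A with 2, the acetyltransferase KAT5, the chromatin remodeller EP400 and ZBTB17, the zinc finger factor through which MYC represses. RUVBL2 had the most peaks in its window, with 19, before EP400 with 12 and KAT5 with 11. SIN3B had no promoter peak, and at TRRAP, the scaffold of acetyltransferase complexes, the canonical TSS was under a peak with its midpoint farther away. All 8 genes of MYC turnover had a promoter peak, among them the ubiquitin ligase genes FBXW7, SKP2 and HUWE1. The peak of HUWE1 was at another annotated TSS, and its canonical TSS lay under no peak. Others of this list were the deubiquitinases USP28 and USP36, the kinase AURKA and CIP2A, an inhibitor of the phosphatase PP2A. Of 14 textbook MYC targets 13 had a promoter peak. These included ODC1 of polyamine synthesis, the nucleolar genes NCL and NPM1, LDHA of glycolysis and CDK4 of the cell cycle. The exception was CCND2, whose canonical TSS was nonetheless under a peak. Window counts in the targets ran from 1 at FBL to 12 at PTMA. Whether these genes, or those of the background, are expressed in SCC25 was not analysed here.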

How the data were processed

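ETS1 ChIP-Seq was performed on SCC25 chromatin with 50 bp single-end reads. Per the study's methods and processing notes, the authors mapped reads to hg19 with Bowtie 1.1.1, discarding those with several loci. Peak calling with MACS2, on each sample, on random splits and on reads pooled with SAMtools 1.3, was followed by IDR across the 3 samples. They deposited 1 list with 3 columns (chromosome, start, end). It holds no signal or depth, and the study's methods give depth only as a range over samples.

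Positions are printed 1-based. Genes and TSSs came from GENCODE release 44 on GRCh37, the same nuclear sequence as hg19. The 9 peaks outside the assembled nuclear chromosomes were left out of all counts but the total. The canonical TSS is that of the transcript tagged so, or else the longest coding one. The members, lists and motifs were chosen with earlier results of these data known. Named are the 8 members, other genes with a TSS within 500 bp of a member peak, genes holding a peak within 1 Mb of MYC, and in each list the genes without a promoter peak and up to 4 with most peaks. List genes named beyond these were chosen after their values were seen. Some list genes are counted but not reported here individually. No test was run, because 8 chosen genes and a pooled list allow none, and counts stand beside those over all coding genes or peaks. Shares carry 95% Wilson intervals, which cover counting error only. Alternatives concerned the TSS distance, the window, the overlap, joined peaks, the first 50% of the list and the motif window. Joining at promoters and the density in other windows were added after seeing the data. The code was tested on simulated data. Tools were Python 3.11.15 with pandas 2.3.3 for tables, pysam 0.24.0 for sequence, scipy 1.17.1 for intervals and matplotlib 3.10.9 for plots.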

Additional observations from a re-analysis of the deposited data

How the results depend on the processing

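The count of 7 members with a promoter peak was 7 at 1000 bp, at 1500 bp and with at least 1 bp of overlap, where 56.9%, 58.1% and 57.4% of coding genes had one. It was 6 with the canonical TSS alone (without MXI1; 46.1% of coding genes) and 6 with the first 50% of the list (without MYCL; 34.8%). The order of that list has no stated meaning, and its first 50% left 7012 coding genes with a promoter peak in place of 10705, and 32 of the 63 peaks in the windows, since fewer peaks were placed. The single peak of MYCN was not among them. Window counts follow the length of the window, with 35 peaks at 50 kb and 111 at 200 kb. Within 1 Mb of MYC the count of 37 ranged from 26 to 37, with 27 within 500 kb. The ETS core was found in 52.2% of the 92 peaks in 200 bp, in 90.2% in the whole peak, and GGAA in 100%. No paired analysis was possible because the 3 samples are pooled in 1 list, for which reason no replicate could be left out either.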

Other observations

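Of the 92 peaks, 36 lay within 500 bp of any annotated TSS, and of the 26961 nuclear peaks 11685 did. Of these 36, 25 were at a TSS of another gene and at no TSS of the network gene. At MYC all 8 such peaks were at noncoding genes. Beside MAX they were the promoters of CHURC1 with its readthrough gene CHURC1-FNTB, GPX2 (a glutathione peroxidase), RAB15 (a small GTPase) and FNTB (the beta subunit of farnesyltransferase), all 4 of them 115.3 to 187.9 kb after the canonical TSS of MAX. Beside MNT the peak at chr17:2206381-2207589 lay at TSSs of SMG6, a factor of nonsense-mediated decay, and of SRR, and that at chr17:2239033-2241861 at TSSs of TSR1, a factor of ribosome biogenesis, and of SGSM2. Beside MXD1 they were GMCL1 and SNRNP27, a protein of the spliceosome, and beside MXI1 the splicing factor SMNDC1. Beside MYCL they were TRIT1, which modifies tRNA, MFSD2A, a lipid transporter, and the noncoding genes LINC02811 and ENSG00000284719. Beside MGA they were RPAP1, MAPKBP1 and JMJD7 with its readthrough gene JMJD7-PLA2G4B and the noncoding gene ENSG00000250379. The upstream promoter peak of MGA itself was also at a TSS of the noncoding gene ENSG00000260926. A further peak inside MFSD2A, of 1778 bp and 68.0 kb upstream of the MYCL TSS, was 2296 bp from the nearest TSS.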
